A study of Mus musculus with 2 samples.

Results

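Ccl2-high stellate cells were cells of 1 mouse liver library, WT replicate 2, that held at least 10 UMIs (unique molecular identifiers, each standing for 1 captured RNA molecule) of the stellate cell gene Dcn and in which Ccl2 made up at least 0.1% of all UMIs. They were thus chosen by their measured Ccl2 and Dcn counts. There were 245 such cells among 2340 cells of the library with Dcn at 10 or more (10.5%), and among 9703 cells in the whole table. They were set against the 1548 cells of the same library with Dcn at 10 or more and no Ccl2 UMI, called Ccl2-zero cells here. The remaining 547 Dcn-positive cells had a Ccl2 share above 0 and under 0.1%. Only 1 cell of the library had Dcn under 10, so in practice the members were set apart by Ccl2. The level of Ccl2 itself is therefore given as a description, and the comparison concerns the other genes of the same cells.

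The study sequenced single cells of C57BL/6 liver at 8 weeks of age with the droplet-based 3' chemistry of 10x Genomics (kit version 2), after the organ had been digested with enzymes and the cells cleaned on a Percoll gradient. Both of its samples, WT replicates 1 and 2, are wild type and untreated apart from this preparation. The labels do not say whether they came from different animals, and they do not describe a sort. Both sides of the comparison come from 1 library, so there was no replicate of either, no test was made and no p-value is given. The intervals below are exact 95% intervals that cover counting error only, and UMIs are not independent samples of a condition.

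Hepatic stellate cells are the pericytes of the liver sinusoid, lie between endothelium and hepatocytes, and store vitamin A as retinyl esters made by the enzyme Lrat. Ccl2 is the chemokine that draws Ccr2-bearing monocytes out of blood and bone marrow into tissue, and stellate cells are among its known sources in the liver. Its gene is a textbook target of NF-kB, a family of transcription factors held in the cytoplasm by inhibitors of the Nfkbia type and released after signals from Tnf, interleukin 1 or bacterial products. Many of the genes NF-kB turns on encode its own inhibitors.

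The Ccl2 gene lies at chr11:82035571-82037453 on the plus strand of GRCm38. The 245 Ccl2-high cells held 3657 Ccl2 UMIs, with 2, 12 and 116 UMIs in the lowest, median and highest cell. The 1548 Ccl2-zero cells held 0 by definition. As CPM, the UMIs of a gene per 1000000 UMIs of the summed cells, Ccl2 stood at 2802 CPM in the Ccl2-high cells, where it made up 0.21% of the UMIs of the median cell and 3.34% of the highest. The members held 77.5% of the 4720 Ccl2 UMIs found in all Dcn-positive cells of the library. Shares declined without a gap, so that 0.1% is a line drawn through a range: 25 members had a share from 0.1% to under 0.12%, and 46 cells had one from 0.08% to under 0.1%. The cell just inside the line had 10 Ccl2 UMIs among 9963, and the cell just outside had 6 among 6002. Within the members 57 cells had 20 or more Ccl2 UMIs, 3 had 50 or more and 1 had 100 or more.

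**Figure D1:**
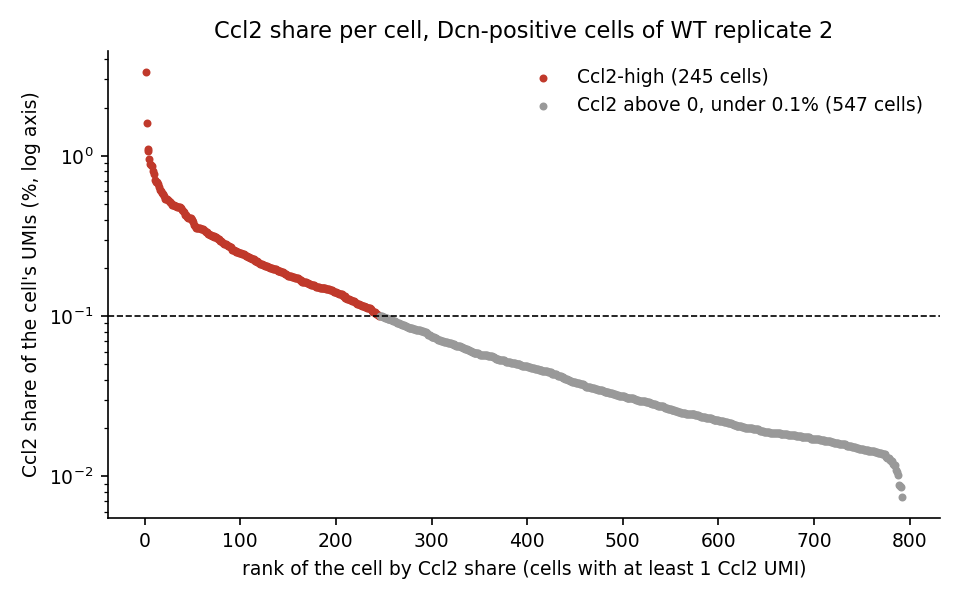
Share of Ccl2 among each cell's UMIs (percent, log axis) against the rank of the cell, for the Dcn-positive cells of WT replicate 2 with at least 1 Ccl2 UMI. The 245 Ccl2-high cells (red) run from 0.1% to 3.34% and join the 547 cells under the dashed 0.1% line (grey) without a break.

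The members carried the stellate cell markers at about the level of their neighbours. Lrat had 1058 CPM in Ccl2-high and 1120 CPM in Ccl2-zero cells. Reln, an extracellular glycoprotein gene used as a stellate marker, had 1830 CPM in Ccl2-high cells and 2183 CPM in Ccl2-zero cells, and Colec11, a collectin gene, had 5487 CPM in Ccl2-high cells and 4382 CPM in Ccl2-zero cells. The hepatocyte growth factor gene Hgf had 1117 CPM in Ccl2-high and 1197 CPM in Ccl2-zero cells. Dcn itself, which chose the cells of both sides, made up most of the sum of the 8 stellate markers and says nothing further about them. The 7 markers other than Dcn (Lrat, Reln, Colec11, Hgf, Rgs5, Pdgfrb and Des) summed to 12544 CPM in Ccl2-high cells and 11605 CPM in Ccl2-zero cells, and each of the 7 was detected on both sides. Beyond Dcn, the stellate label thus rests on these 7 genes.

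RNA of other liver cell types was present on both sides at low summed levels. The 8 markers of sinusoidal endothelium summed to 964 CPM in Ccl2-high cells and 1031 CPM in Ccl2-zero cells. The 10 markers of Kupffer cells and macrophages summed to 130 CPM in Ccl2-high cells and 155 CPM in Ccl2-zero cells, with Timd4 at 0 in the members. The 8 hepatocyte markers gave 235 CPM in Ccl2-high cells and 269 CPM in Ccl2-zero cells, and the 8 portal fibroblast markers gave 68.2 CPM in Ccl2-high cells and 118 CPM in Ccl2-zero cells, with Thy1, Clec3b, Mfap4 and Fbln2 at 0 in the members. The 6 smooth muscle markers, which share Des with the stellate list, gave 280 CPM in Ccl2-high cells and 261 CPM in Ccl2-zero cells, with Cnn1 and Actg2 at 0 on both sides. All mesothelial and neutrophil markers were at 0 on both sides, cholangiocyte markers had 0 UMIs in the members and 15 in Ccl2-zero cells, and the 5 lymphocyte markers had 5 UMIs in the members and 10 in Ccl2-zero cells. Ccr2, the receptor of Ccl2, had 0 UMIs on both sides.

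Depth and RNA quality were close. Ccl2-high cells had a median of 5169 UMIs (1448 to 13066 per cell, 1305291 in all) and Ccl2-zero cells a median of 4876 (1288 to 12156, 7604582 in all). The median mitochondrial share was 1.56% in Ccl2-high and 1.56% in Ccl2-zero cells. After each cell was thinned to 3000 UMIs, the median number of genes was 1556 in 223 Ccl2-high cells and 1569 in 1387 Ccl2-zero cells, leaving out 22 shallower Ccl2-high and 161 shallower Ccl2-zero cells. The libraries share 5 barcodes, of which 1 is a Ccl2-high and 3 are Ccl2-zero cells.

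Of 10029 genes with at least 50 UMIs over both sides, 74 (0.738%) were at least 2-fold higher in Ccl2-high cells, Ccl2 included, and 243 (2.42%) were at least 2-fold lower. The lower calls in particular thinned out at higher counts: among the 5970 genes with at least 200 UMIs, 27 (0.452%) were at least 2-fold higher in Ccl2-high cells and 19 (0.318%) at least 2-fold lower. The median log2 fold over all genes was -0.05.

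The genes with the largest folds after Ccl2 were other chemokine genes. Ccl7, which encodes a second ligand of Ccr2 and lies beside Ccl2 at chr11:82045712-82047525, had 115 UMIs in 49 Ccl2-high cells, against 55 UMIs in 34 Ccl2-zero cells. That is 88.1 CPM in Ccl2-high and 7.23 CPM in Ccl2-zero cells, a fold of 12.2 (8.76 to 17.1). Most members still had no Ccl7 UMI. The highest member held 17 Ccl7 UMIs and the highest Ccl2-zero cell 5.

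Cxcl10, the interferon-inducible ligand of Cxcr3 on T and NK cells, had 1240 UMIs in Ccl2-high and 1287 UMIs in Ccl2-zero cells although the Ccl2-zero cells held far more UMIs in all. Its level was 950 CPM in Ccl2-high and 169 CPM in Ccl2-zero cells, a fold of 5.61 (5.19 to 6.07). By cell, the lowest, median and highest levels of Cxcl10 were 0, 362 and 14191 CPM in Ccl2-high cells, against 0, 0 and 6764 CPM in Ccl2-zero cells. The ranges overlapped, and the median member had the transcript while the median Ccl2-zero cell had none counted.

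Cxcl1 and Cxcl2 encode ligands of the neutrophil receptor Cxcr2. Cxcl1 had 607 UMIs in 114 Ccl2-high cells, against 773 UMIs in 281 Ccl2-zero cells, or 465 CPM in Ccl2-high and 102 CPM in Ccl2-zero cells (4.57-fold, 4.11 to 5.09). Cxcl2 had 64 UMIs in 22 Ccl2-high cells, against 88 UMIs in 75 Ccl2-zero cells (4.24-fold, 3.02 to 5.91). For Cxcl2 1 member held 19 of the 64 UMIs, and the log2 fold of Cxcl2, 2.08 over all cells, was 0.90 among cells of middle depth and 0.58 once cells with a UMI of a marker that defines another cell type were left out. Under the same removal the log2 fold of Ccl7 was 3.44, the log2 fold of Cxcl10 was 2.52 and the log2 fold of Cxcl1 was 1.93. That removal left only 52 Ccl2-high and 381 Ccl2-zero cells. Among them 6 genes of the chemokine list met the UMI minimum for a comparison, and 2 of these were at least 2-fold higher. Not all of Ccl7, Cxcl10 and Cxcl1 can therefore have met that minimum, and their values after the removal rest on few cells.

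Over the whole chemokine list, without Ccl2, 15 genes could be compared. Of these, 4 (26.7%, beside 0.728% over all genes) were at least 2-fold higher in Ccl2-high cells and 0 were lower. The median log2 fold was 0.38 beside -0.05 over all genes. The higher genes were Ccl7, Cxcl10, Cxcl1 and Cxcl2. Cxcl12, the homeostatic chemokine that stellate cells make in quantity, stood at 4382 CPM in Ccl2-high cells and 5242 CPM in Ccl2-zero cells, and had a UMI in all 245 members. Cxcl9, like Cxcl10 a Cxcr3 ligand, had 10.7 CPM in Ccl2-high and 11.4 CPM in Ccl2-zero cells. Cxcl16, a membrane-bound chemokine gene, had 110 CPM in Ccl2-high cells and 111 CPM in Ccl2-zero cells. Cxcl5, a further Cxcr2 ligand gene, had 23 UMIs in 12 Ccl2-high cells and 3 UMIs in 3 Ccl2-zero cells, too few for the 50-UMI minimum. Ccl12, a further Ccr2 ligand gene of the mouse, and Ccl8 had 0 UMIs on both sides. Ccl11 had 1 UMI in Ccl2-high cells and 6 UMIs in Ccl2-zero cells. Cxcl12, Cxcl9, Cxcl16, Cxcl5, Ccl8, Ccl12 and Ccl11 were chosen for mention after their values were seen.

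**Figure D2:**
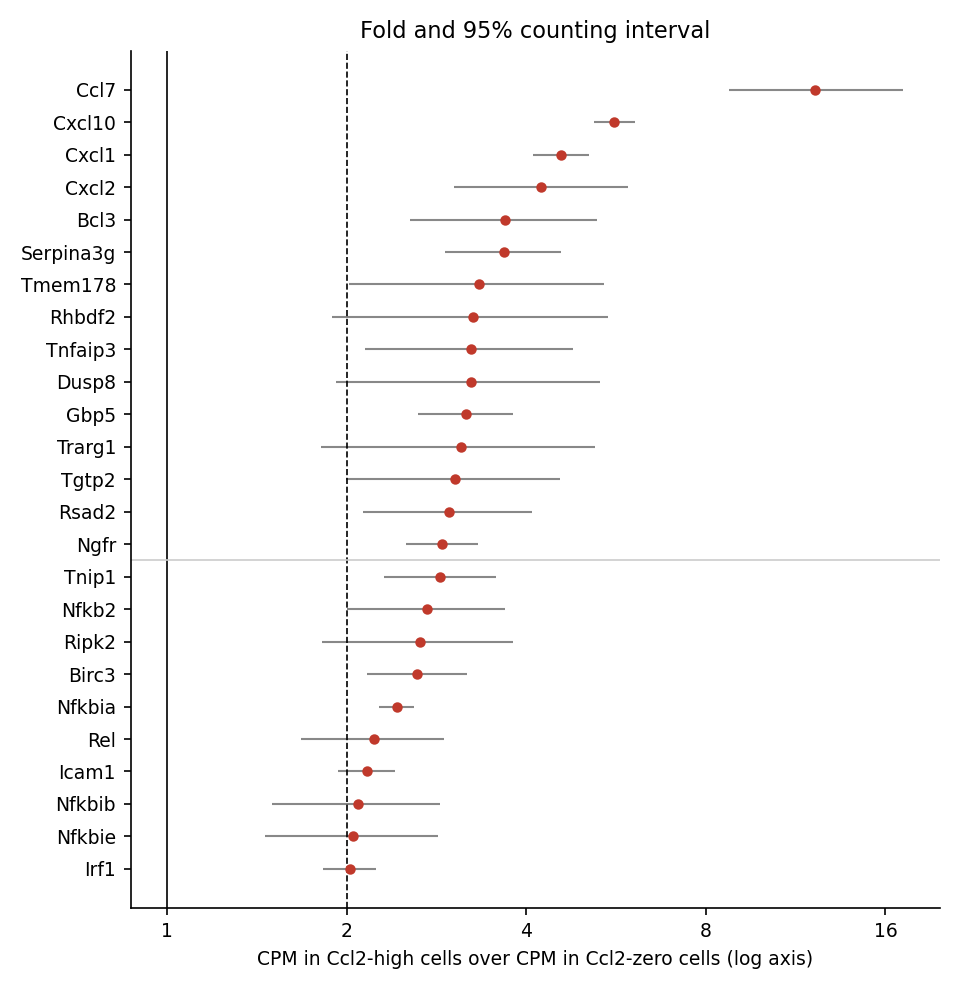
CPM in Ccl2-high over CPM in Ccl2-zero cells (log axis) for the 15 genes with the largest folds and, under the grey line, the other higher genes of the NF-kB list; points are folds, bars the exact 95% counting intervals, and the dashed line marks 2-fold. Ccl7 stands at 12.2, Cxcl10 at 5.61 and Cxcl1 at 4.57, while the NF-kB genes lie between 2.02 and 3.68.

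The start regions of 4 of the higher genes are shown because they hold the letters of the motif that NF-kB binds. Each line gives the 250 bases before the RefSeq start of the gene (assembly GRCm38.p6), 5' to 3' on the strand of the gene. Capitals mark matches, on either strand, to GGGA and TTCC with any 2 bases between them and, in Cxcl10, also to GAAA and GAAA with any 2 bases between them, the core of the element bound by interferon-activated factors.
Cxcl10 promoter, chr5:92348890-92349139, minus strand: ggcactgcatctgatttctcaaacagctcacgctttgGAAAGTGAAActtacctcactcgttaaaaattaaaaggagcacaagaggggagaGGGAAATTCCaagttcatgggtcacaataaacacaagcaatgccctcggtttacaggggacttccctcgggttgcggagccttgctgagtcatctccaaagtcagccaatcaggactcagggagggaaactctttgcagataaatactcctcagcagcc
Cxcl1 promoter, chr5:90890995-90891244, plus strand: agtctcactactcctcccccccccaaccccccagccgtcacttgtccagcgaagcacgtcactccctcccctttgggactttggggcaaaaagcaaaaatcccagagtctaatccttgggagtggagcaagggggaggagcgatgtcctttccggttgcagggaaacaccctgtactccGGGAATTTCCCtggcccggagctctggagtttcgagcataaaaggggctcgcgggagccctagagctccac
Nfkbia promoter, chr12:55492648-55492897, minus strand: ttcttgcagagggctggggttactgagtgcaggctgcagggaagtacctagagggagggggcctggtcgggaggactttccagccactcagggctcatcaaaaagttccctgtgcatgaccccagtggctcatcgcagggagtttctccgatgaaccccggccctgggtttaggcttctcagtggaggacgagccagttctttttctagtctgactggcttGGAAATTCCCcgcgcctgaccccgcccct
Csf1 promoter, chr3:107760470-107760719, minus strand: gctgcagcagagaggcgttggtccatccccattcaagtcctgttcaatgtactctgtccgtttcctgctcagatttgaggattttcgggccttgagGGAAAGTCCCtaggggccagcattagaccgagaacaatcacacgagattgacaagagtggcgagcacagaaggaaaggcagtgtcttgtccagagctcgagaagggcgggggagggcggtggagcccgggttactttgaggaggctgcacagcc
The Cxcl10 stretch held both motifs, the interferon one 213 and the NF-kB one 159 bases before the start, and they did not overlap. In Cxcl1 a pair of overlapping matches lay 71 and 70 bases before the start, which is why 11 letters are in capitals. The match in Nfkbia lay 29 bases and that in Csf1 154 bases before the start.

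Promoter stretches were found for 50 of the 73 higher genes other than Ccl2. A gene was counted if any of its stretches matched. The NF-kB letters, on either strand, occurred in 7 of these 50 (14.0%), namely Csf1, Cxcl1, Cxcl10, Cxcl2, Gbp5, Nfkb2 and Nfkbia. They occurred in 114 of 7749 compared genes with a stretch (1.47%) and in 2 of 184 lower genes with one (1.09%). Counted by single stretch, and so in another unit, they occurred in 397 of 32851 stretches of the RefSeq table (1.21%). Of the 12 higher genes of the NF-kB list described below, 11 had a stretch. The NF-kB letters occurred in 2 of these 11 (18.2%) and the interferon letters in 0, so most higher genes of that list had no match. The interferon letters occurred in 6 of the 50 (12%), namely Cxcl10, Gbp5, Isg15, Rsad2, Tgtp2 and Ttyh1, against 254 of 7749 (3.28%) and 5 of the 184 lower genes (2.72%). The motif letters were chosen with the list of higher genes known. A match describes letters in a window and is not a binding site, and a stretch without one says nothing about the factor.

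NF-kB pathway genes and targets were the list with most members past the line. Of 27 genes compared, 12 (44.4%) were at least 2-fold higher in Ccl2-high cells and 0 lower, and 25 were above 1-fold. Their median log2 fold was 0.91 beside -0.05 over all genes. The count of 12 depended on the cells compared. It was 7 of 29 at a Ccl2 share of 0.05% or more and 8 of 29 against all Dcn-positive cells under 0.1%. Without cells holding a marker of another type it was 7 of 18, and at a share of 0.2% or more it was 14 of 27, with 1 lower. Over all genes 0.548%, 0.675%, 1.14% and 1.21% were at least 2-fold higher in these settings, in that order. Of all 10027 genes other than Ccl2 and Dcn, 0.728% were at least 2-fold higher, 2.42% lower and 4330 above 1-fold. Genes of inhibitors are given first. Nfkbia, which encodes the inhibitor IkB-alpha, had 1228 UMIs in Ccl2-high and 2953 UMIs in Ccl2-zero cells, or 941 CPM in Ccl2-high and 388 CPM in Ccl2-zero cells (2.42-fold, 2.26 to 2.59). The lowest, median and highest cell had 0, 691 and 3869 CPM among Ccl2-high cells, against 0, 279 and 3280 CPM among Ccl2-zero cells, so that the ranges overlapped while 223 of 245 members had at least 1 Nfkbia UMI. Nfkbib and Nfkbie, both for further inhibitors, were 2.08-fold (1.498 to 2.861) and 2.05-fold (1.46 to 2.84) higher. Tnfaip3, which encodes the deubiquitinase A20 that shuts the pathway down, had 31.4 CPM in Ccl2-high and 9.73 CPM in Ccl2-zero cells (3.23-fold, 2.15 to 4.79). Tnip1, for an A20 partner, had 99.6 CPM in Ccl2-high and 34.7 CPM in Ccl2-zero cells (2.87-fold, 2.31 to 3.55).

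Genes of the factors and of upstream signalling were among the higher ones as well. Bcl3, for a nuclear IkB protein that joins p50 and p52, had 40.6 CPM in Ccl2-high and 11.05 CPM in Ccl2-zero cells (3.68-fold, 2.56 to 5.25), the largest fold of the list. Nfkb2, for the p100 precursor of p52, was 2.72-fold higher in Ccl2-high cells (1.997 to 3.683) and Rel, for the subunit c-Rel, 2.22-fold (1.68 to 2.91). Relb, at 65.9 CPM in Ccl2-high and 35.1 CPM in Ccl2-zero cells, and Nfkb1, at 114 CPM in Ccl2-high and 79.8 CPM in Ccl2-zero cells, did not reach 2-fold, and Rela stood at 77.4 CPM in Ccl2-high and 72.2 CPM in Ccl2-zero cells. Ripk2, the kinase behind Nod receptors, was 2.65-fold higher (1.82 to 3.80) and Birc3, a ubiquitin ligase of the Tnf receptor complex, 2.63-fold (2.16 to 3.18).

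Of the target genes on the list, Icam1, the adhesion molecule that binds leukocyte integrins, had 349 CPM in Ccl2-high and 161 CPM in Ccl2-zero cells (2.16-fold, 1.94 to 2.41). Vcam1, its counterpart for other integrins, had 561 CPM in Ccl2-high and 421 CPM in Ccl2-zero cells (1.33-fold). Irf1, a transcription factor gene that both NF-kB and interferon switch on, was 2.02-fold higher (1.83 to 2.23). Sod2 stood at 178 CPM in Ccl2-high and 150 CPM in Ccl2-zero cells, and Ptgs2, the inducible cyclooxygenase gene, had 0 UMIs on both sides. Nfkbia, Nfkbib, Nfkbie, Rel, Icam1 and Irf1, and the genes under 2-fold in these paragraphs, are named beyond the 6 largest folds of the list, after their values were seen.

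Among 11 cytokine and growth factor genes for leukocytes, 2 (18.2%) were at least 2-fold higher in Ccl2-high cells and 0 lower. Their median log2 fold was 0.10, and 0.728% of all genes were at least 2-fold higher. Csf1, the growth factor that keeps macrophages alive, had 690 UMIs in 200 Ccl2-high cells, against 1404 UMIs in 852 Ccl2-zero cells. The level of Csf1 was 529 CPM in Ccl2-high and 185 CPM in Ccl2-zero cells, a fold of 2.86 (2.61 to 3.14). By cell the lowest, median and highest levels of Csf1 were 0, 386 and 2847 CPM in Ccl2-high cells, against 0, 158 and 2009 CPM in Ccl2-zero cells, so that the ranges overlapped and the medians lay apart. Tnfsf10, for the death ligand Trail, had 21 UMIs in Ccl2-high and 48 UMIs in Ccl2-zero cells (2.55-fold, 1.45 to 4.34). Il34, the second ligand of the Csf1 receptor, had 165 CPM in Ccl2-high and 88.5 CPM in Ccl2-zero cells (1.87-fold, 1.60 to 2.18). Il33, an alarmin gene, had 29.1 CPM in Ccl2-high and 55.1 CPM in Ccl2-zero cells. Il6 had 0 UMIs in Ccl2-high cells and 5 UMIs in Ccl2-zero cells, Tnf had 5 UMIs in Ccl2-high and 22 UMIs in Ccl2-zero cells, and Il1b had 11 UMIs in Ccl2-high and 71 UMIs in Ccl2-zero cells, so neither side held appreciable RNA of these cytokines. Il33, Il6, Tnf and Il1b were chosen for mention after their values were seen.

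Of 25 receptor and adaptor genes through which such signals enter a cell, 1 (4%) was at least 2-fold higher in Ccl2-high cells and 0 lower. Their median log2 fold was 0.15, and 0.728% of all genes were at least 2-fold higher. Tlr2, the receptor for bacterial lipopeptides, had 23 UMIs in 20 Ccl2-high cells and 51 UMIs in 49 Ccl2-zero cells (2.63-fold, 1.53 to 4.38). The Tnf receptor gene Tnfrsf1a stood at 223 CPM in Ccl2-high and 193 CPM in Ccl2-zero cells, the interleukin 1 receptor gene Il1r1 at 104.96 CPM in Ccl2-high and 101 CPM in Ccl2-zero cells, and Tlr4, the receptor for endotoxin, at 12.3 CPM in Ccl2-high and 13.9 CPM in Ccl2-zero cells. These 3, chosen after their values were seen, were thus near 1-fold.

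Of 38 interferon-induced genes compared, 5 (13.2%) were at least 2-fold higher in Ccl2-high cells and 1 (2.63%) lower. Over all genes 0.728% were higher and 2.42% lower. Of the 38, 35 lay above 1-fold, beside 4330 of all 10027 genes, and their median log2 fold was 0.38. Gbp5, for a guanylate-binding protein of the interferon-gamma response, had 143 CPM in Ccl2-high and 44.97 CPM in Ccl2-zero cells (3.17-fold, 2.64 to 3.80). Iigp1, for an interferon-gamma-induced GTPase, had 917 CPM in Ccl2-high and 423 CPM in Ccl2-zero cells (2.17-fold, 2.03 to 2.32). Cd274, for the checkpoint ligand PD-L1, was 2.13-fold higher (1.19 to 3.66) and Isg15, for a ubiquitin-like protein, 2.01-fold (1.77 to 2.28). Oas1a, an RNA sensor gene, was the lower one, with 8 UMIs in Ccl2-high and 107 UMIs in Ccl2-zero cells. Rsad2, for the antiviral protein viperin, had 59 UMIs in only 16 Ccl2-high cells, 30 of them in 1 cell, against 116 UMIs in 93 Ccl2-zero cells. The log2 fold of Rsad2 was 1.57 over all cells and 0.67 without the highest cell, and its sign turned in cells with a Ccl2 share of 0.2% or more.

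The lists of general stress genes had medians nearer to 1-fold than the NF-kB list, though single genes lay further from it. Of 40 immediate early genes, which are transcribed within minutes of a stimulus, 0 were at least 2-fold higher and 0 lower. Of the 40, 34 lay above 1-fold, beside 4330 of all 10027 genes, with a median log2 fold of 0.27. Fos had 4263 CPM in Ccl2-high and 3605 CPM in Ccl2-zero cells (1.18-fold), Jun 3912 CPM in Ccl2-high and 3470 CPM in Ccl2-zero cells (1.13-fold), and Junb 3264 CPM in Ccl2-high and 2682 CPM in Ccl2-zero cells (1.22-fold). Both sides thus held much RNA of these genes. Atf3 and Egr1, chosen after their values were seen, lay further from 1-fold. Atf3 had 932 CPM in Ccl2-high and 530 CPM in Ccl2-zero cells (1.76-fold, 1.65 to 1.88). Egr1 had 2016 CPM in Ccl2-high and 1596 CPM in Ccl2-zero cells (1.26-fold). Of 19 heat shock genes 0 passed 2-fold in either direction (median log2 fold 0.03), with the chaperone gene Hspa8 at 535 CPM in Ccl2-high and 538 CPM in Ccl2-zero cells. Of 10 glucocorticoid and metal response genes 0 passed 2-fold, and the metallothionein gene Mt1 stood at 1086 CPM in Ccl2-high and 762 CPM in Ccl2-zero cells. Of 12 genes of the Stat3 and acute phase response, 2 (16.7%, beside 0.728% over all genes) were at least 2-fold higher and 0 lower. They were Serpina3g (3.66-fold, 2.92 to 4.57), a serine protease inhibitor gene, and Cish (2.51-fold, 1.55 to 3.97), a cytokine signal inhibitor gene.

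Cxcl10, Cxcl1, Nfkbia and Csf1 stood higher at each step of a larger Ccl2 share, and Ccl7 at all but one. Across cells at 0, above 0 to under 0.05%, 0.05% to under 0.1%, 0.1% to under 0.2%, 0.2% to under 0.5% and 0.5% or more Ccl2 (1548, 401, 146, 115, 102 and 28 cells), Cxcl10 stood at 169, 292, 338, 790, 949 and 1737 CPM. Ccl7 stood at 7.23, 12.2, 20.02, 70.5, 68.7 and 258 CPM over the same steps, and Cxcl1 at 102, 148, 183, 397, 437 and 916 CPM. Cxcl2 had no such order, at 11.6, 6.798, 17.3, 59.3, 28.9 and 86.1 CPM. Cells under the 0.1% line lay between the Ccl2-zero cells and the members for Cxcl10, Ccl7 and Cxcl1. Nfkbia stood at 388, 493, 581, 737, 1039 and 1510 CPM, and Csf1 at 185, 255, 318, 389, 636 and 743 CPM. Lrat differed little between the steps, at 1120, 1157, 1124, 1099, 1023 and 1009 CPM, and so did Fos, at 3605, 4078, 3953, 4483, 3979 and 4413 CPM. The median UMIs per cell of the 6 steps were 4876, 5482, 5274, 5382, 5299 and 4402, so the last step was the shallowest and a single Ccl2 UMI places a cell higher there. The steps use Ccl2 as the rule did, and no trend was tested.

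**Figure D3:**
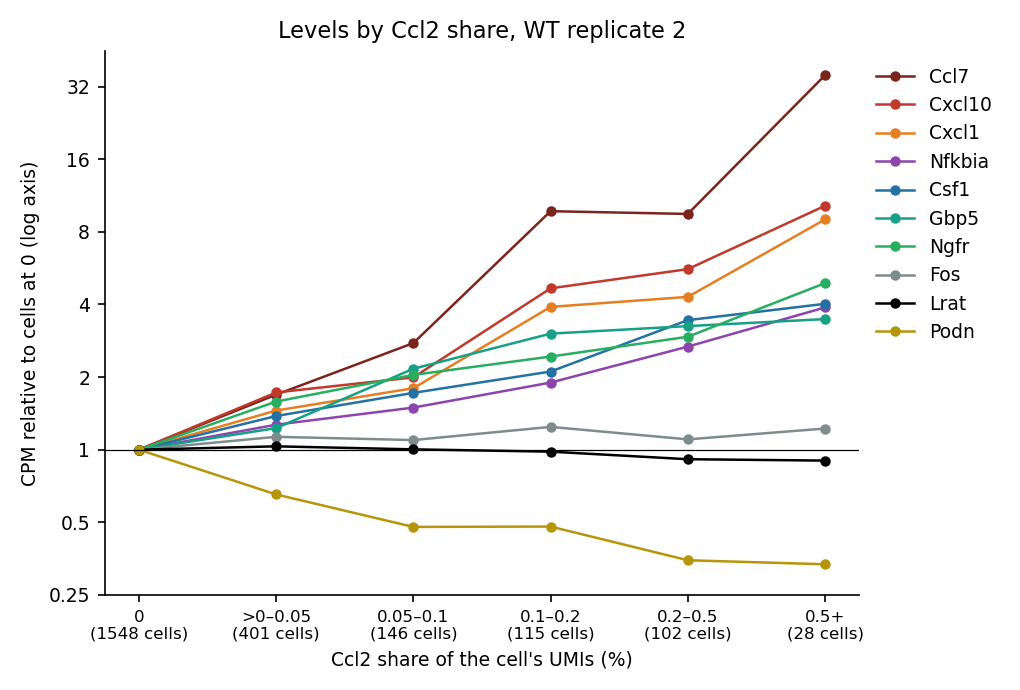
Level of 10 genes (CPM of the summed cells, relative to cells without a Ccl2 UMI; log axis) by the Ccl2 share of the cell, with the number of cells under each step. Of the genes drawn, the chemokine genes Ccl7, Cxcl10 and Cxcl1 reach the largest ratios, Ccl7 at 258 CPM and Cxcl10 at 1737 CPM in the last step, Nfkbia and Csf1 smaller ones, while Fos and Lrat stay near 1 and the central gene Podn lies under it.

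The share of cells with a UMI was compared after thinning each cell to 3000 UMIs. Cxcl10 was then seen in 129 of 223 Ccl2-high cells (57.8%, 51.1 to 64.4) and 308 of 1387 Ccl2-zero cells (22.2%, 20.04 to 24.49), and unthinned in 66.5% of Ccl2-high and 28.6% of Ccl2-zero cells. Cxcl1 was seen in 39.9% of Ccl2-high and 14.1% of Ccl2-zero cells, Ccl7 in 15.7% of Ccl2-high and 1.80% of Ccl2-zero cells, and Csf1 in 70.4% of Ccl2-high and 40.9% of Ccl2-zero cells (unthinned: Cxcl1 46.5% of Ccl2-high and 18.2% of Ccl2-zero cells, Ccl7 20% of Ccl2-high and 2.20% of Ccl2-zero cells, Csf1 81.6% of Ccl2-high and 55.0% of Ccl2-zero cells). Cxcl2 was seen in 4.04% of Ccl2-high and 3.03% of Ccl2-zero cells, with overlapping counting intervals. Genes of other cell types were taken as a rough measure of free RNA. The endothelial gene Stab2 had a UMI in 17.0% of thinned Ccl2-high and 21.6% of thinned Ccl2-zero cells, and the hepatocyte gene Alb in 8.52% of Ccl2-high and 6.42% of Ccl2-zero cells. Whether these UMIs came from free RNA was not tested. Ccl7 in the members was thus no more frequent than Stab2. Its counting interval was 11.2% to 21.1% in Ccl2-high and 1.17% to 2.65% in Ccl2-zero cells. The cells are not replicates, and no difference between the sides was tested.

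**Figure D4:**
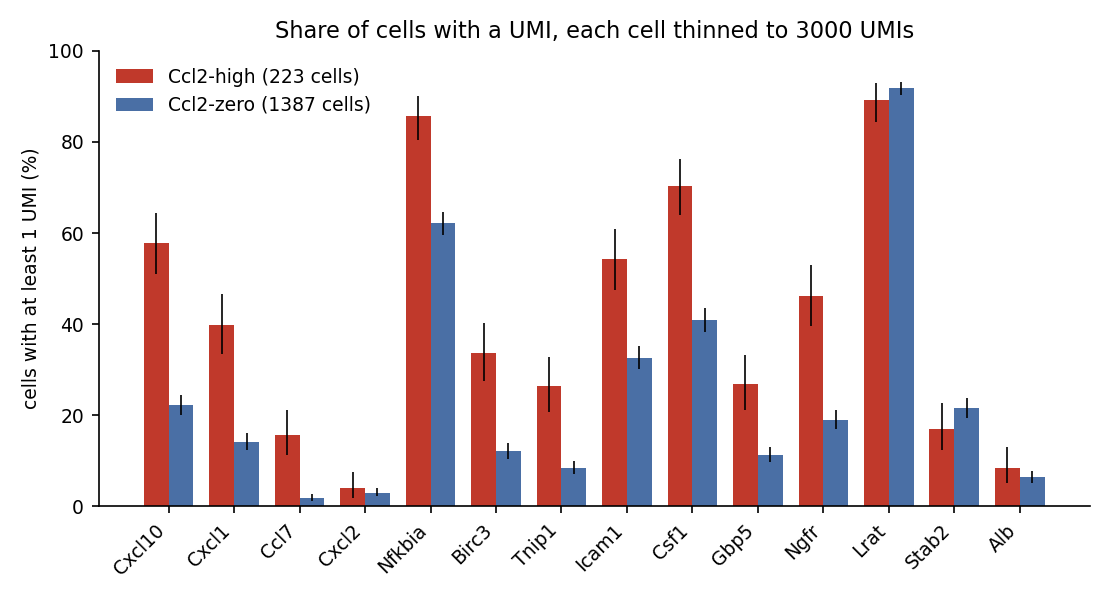
Percent of cells with at least 1 UMI of a gene after each cell was thinned to 3000 UMIs, in 223 Ccl2-high (red) and 1387 Ccl2-zero cells (blue); bars start at 0 and lines are exact 95% binomial intervals. Cxcl10 reaches 57.8% in Ccl2-high and 22.2% in Ccl2-zero cells, while Lrat, Stab2 and Alb are close on both sides.

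Members were not alike in their other chemokines. Of the 223 thinned Ccl2-high cells 168 (75.3%) had a UMI of at least 1 of Cxcl10, Cxcl1, Ccl7 and Cxcl2, against 481 of 1387 Ccl2-zero cells (34.7%). At least 2 of the 4 were seen in 73 Ccl2-high cells (32.7%) and 84 Ccl2-zero cells (6.06%), and 55 members (24.7%) had none of them. Within the members Cxcl2 stood at 89.5 CPM in the 114 cells with a Cxcl1 UMI (58 UMIs) and at 9.13 CPM in the 131 cells without (6 UMIs). Gbp5 stood at 170 CPM in the 163 members with a Cxcl10 UMI and at 83.0 CPM in the 82 without. Nfkbia stood at 1128 CPM in members with a Cxcl1 UMI and at 756 CPM in those without, and Csf1 at 515 CPM in members with a Cxcl1 UMI and at 542 CPM in those without. Members with a Cxcl1 UMI were deeper (median 5451 UMIs) than those without (4793), and no test was made of these splits.

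The lists of stellate cell function had medians near 1-fold, though single genes lay further from it. Of 35 genes of stellate identity and retinoid storage, 1 (2.86%, beside 0.728% over all genes) was at least 2-fold higher in Ccl2-high cells and 0 lower. The median log2 fold of the list was 0.02. The higher gene was Rdh10, the retinol dehydrogenase that starts retinoic acid synthesis, with 42.9 CPM in Ccl2-high and 19.5 CPM in Ccl2-zero cells (2.20-fold, 1.59 to 3.02). Of 14 collagen genes 0 passed 2-fold in either direction (median log2 fold -0.18), with Col14a1 at 2831 CPM in Ccl2-high and 2452 CPM in Ccl2-zero cells and Col3a1 at 525 CPM in Ccl2-high and 677 CPM in Ccl2-zero cells. Of 25 genes of TGF-beta and BMP signalling 0 passed 2-fold (median log2 fold -0.16), nor did any of 7 prostanoid and nitric oxide genes (median log2 fold -0.23). By share of thinned cells with a UMI, Aldh1a1 was seen in 35.0% of Ccl2-high and 52.1% of Ccl2-zero cells. Aldh1a3 was seen in 9.42% of Ccl2-high and 17.7% of Ccl2-zero cells, and Bambi in 42.6% and 60.3%. Bmp2 went the other way, with 60.5% of Ccl2-high and 46.2% of Ccl2-zero cells. These genes were chosen after their values were seen.

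Genes of activation and contraction, which mark the turn of a stellate cell into a myofibroblast, gave 0 higher and 2 lower (7.69%) of 26 compared. Their median log2 fold was 0.08, and 2.42% of all genes were at least 2-fold lower. The lower ones were S100a6, with 1 UMI in Ccl2-high and 148 UMIs in 39 Ccl2-zero cells, and the smooth muscle actin gene Acta2, with 3 UMIs in 2 Ccl2-high cells and 76 UMIs in 19 Ccl2-zero cells. For S100a6, 1 Ccl2-zero cell held 78 of the 148 UMIs, and for Acta2, 1 held 35 of the 76. Tagln, an actin-binding gene of contractile cells chosen after its values were seen, had 220 CPM in Ccl2-high and 147 CPM in Ccl2-zero cells.

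Of 28 matrix glycoprotein, proteoglycan and protease genes 2 (7.14%) were at least 2-fold higher in Ccl2-high cells and 4 (14.3%) lower (median log2 fold -0.00). Over all genes 0.728% were higher and 2.42% lower. The higher ones were the protease gene Htra1 (29.9 CPM in Ccl2-high and 11.8 CPM in Ccl2-zero cells) and the vitronectin gene Vtn (26.8 CPM in Ccl2-high and 10.9 CPM in Ccl2-zero cells). The lower ones were the elastin gene Eln (13.0 CPM in Ccl2-high and 31.7 CPM in Ccl2-zero cells), the protease gene Htra3 (20.7 CPM in Ccl2-high and 47.2 CPM in Ccl2-zero cells), the aggrecanase gene Adamts5 (124 UMIs in Ccl2-high and 1578 UMIs in Ccl2-zero cells) and the proteoglycan gene Ogn (49.8 CPM in Ccl2-high and 108 CPM in Ccl2-zero cells). Of 16 antioxidant and stress adaptation genes 0 were higher and 1 lower (6.25%, beside 2.42% over all genes). The lower one was the glucose transporter gene Slc2a1, with 4 UMIs in Ccl2-high and 74 UMIs in Ccl2-zero cells.

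Among genes with at least 200 UMIs the lowest fold in members was that of Inmt, an amine methyltransferase gene, with 10 UMIs in Ccl2-high and 464 UMIs in Ccl2-zero cells. Its level was 7.66 CPM in Ccl2-high and 61.0 CPM in Ccl2-zero cells, a fold of 0.126 (0.060 to 0.233). Over the 6 steps of Ccl2 share Inmt stood at 61.0, 33.1, 9.34, 8.01, 9.03 and 0 CPM. The other genes with the largest lower folds, Nek8, Ccdc137, Trp53rkb, Hist1h4h, Zeb2os, Thrb, Hist4h4, Ldlrad4, Ppp1r3e, Tom1l1, Fbxo31 and Wdr60, each had 8 UMIs or fewer in the members. Among genes with at least 200 UMIs the next lowest folds were those of Meg3, a long noncoding RNA gene, at 0.293-fold (0.172 to 0.470), Lcn8 at 0.307-fold (0.151 to 0.560) and Spon2 at 0.313-fold (0.189 to 0.491). Podn, a proteoglycan gene and central landmark, stood at 0.410-fold (0.331 to 0.502). Meg3 and Lcn8 were chosen after their values were seen.

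Among the remaining genes of the 15 largest folds, 5 stood in no list. Tmem178 (28 UMIs in Ccl2-high and 49 UMIs in Ccl2-zero cells), Rhbdf2, a cofactor gene for the release of Tnf (24 UMIs in Ccl2-high and 43 UMIs in Ccl2-zero cells), the phosphatase gene Dusp8 (26 UMIs in Ccl2-high and 47 UMIs in Ccl2-zero cells), Trarg1 (24 UMIs in Ccl2-high and 45 UMIs in Ccl2-zero cells) and the interferon-induced GTPase gene Tgtp2 (38 UMIs in Ccl2-high and 73 UMIs in Ccl2-zero cells) were 3.03-fold to 3.33-fold higher on few UMIs. Ngfr, the low-affinity neurotrophin receptor gene, had 313 UMIs in 153 Ccl2-high cells and 631 UMIs in 401 Ccl2-zero cells (2.89-fold, 2.52 to 3.31).

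Ngfr is also a landmark of portal position. Stellate cells differ between the portal and the central end of the sinusoid, and each Dcn-positive cell of the library was given a score from 4 portal landmarks (Ngfr, Itgb3, Igfbp3 and Il34) and 4 central ones (Adamtsl2, Loxl1, Podn and Spon2), then placed in 1 of 3 equal ranges of 780 cells. Ccl2-high cells made up 159 of the 780 cells of the portal range (20.4%, 17.6 to 23.4), 47 of the middle range (6.03%, 4.46 to 7.93) and 39 of the central range (5%, 3.58 to 6.77). The portal range thus held 64.9% of the members. The median depth was 5251 UMIs in the portal, 5025 in the middle and 4820 in the central range, and 344 cells lay within 0.1 of a border between ranges. All 4 portal landmarks were above 1-fold in the members, with Igfbp3 at 549 CPM in Ccl2-high and 321 CPM in Ccl2-zero cells. All 4 central ones were under it, with Adamtsl2 at 201 CPM in Ccl2-high and 348 CPM in Ccl2-zero cells. The landmarks make up the score, so their folds restate the placement of the members and are no separate evidence of it.

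The comparison was therefore repeated within the portal range, with 159 Ccl2-high and 393 Ccl2-zero cells. Of 6725 genes with at least 50 UMIs there, 37 (0.550%) were at least 2-fold higher and 36 (0.535%) lower. The chemokine folds were much as over all cells: Ccl7 had 84.6 CPM in Ccl2-high and 5.11 CPM in Ccl2-zero cells of the portal range (16.6-fold, 8.50 to 36.0), Cxcl10 had 963 CPM in Ccl2-high and 199 CPM in Ccl2-zero cells (4.83-fold, 4.28 to 5.46) and Cxcl1 had 468 CPM in Ccl2-high and 109 CPM in Ccl2-zero cells (4.30-fold, 3.63 to 5.10). Of the 12 higher NF-kB genes, taken without a UMI minimum in this range, 10 remained past 2-fold, with Icam1 (1.82-fold) and Irf1 (1.69-fold) under it. The median fold of the 12 was 2.28 in the portal range and 2.52 over all cells. With the minimum of 50 UMIs in the range, 9 of 22 NF-kB genes compared were at least 2-fold higher and 0 lower. In the central range, with 39 Ccl2-high and 612 Ccl2-zero cells, 132 of 7202 genes (1.83%) were at least 2-fold higher and 535 (7.43%) lower, at the low depth of so few members. There Cxcl10 was 7.25-fold (6.12 to 8.57) and Cxcl1 5.003-fold (3.92 to 6.34) higher in the members. Iigp1, 2.17-fold higher over all cells, was 1.73-fold higher in the portal range.

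The folds of genes that differ by position were closer to 1 within the portal range. The 20 genes with the largest portal over central fold among Ccl2-zero cells alone, leaving out the landmarks, were all above 1-fold in the members over all cells, 6 of them past 2-fold, with a median fold of 1.78. Within the portal range 2 of the 20, Gbp5 (2.25-fold) and Serpina3g (2.51-fold), were past 2-fold and the median fold was 1.19. Rgs4, a regulator of G protein signalling, was 2.72-fold higher over all cells and 1.47-fold higher within the portal range, and Heyl, a Notch target gene, was 2.53-fold higher over all cells and 1.49-fold higher within the portal range. Ngfr was 1.54-fold higher in the members of the portal range. Of the 20 genes with the largest central over portal fold, 11 were at least 2-fold lower in the members over all cells and 4 within the portal range, with a median fold of 0.448 over all cells and 0.727 within the portal range. Inmt had 3 UMIs in Ccl2-high and 36 UMIs in Ccl2-zero cells of the portal range (0.192-fold, 0.0378 to 0.607), Podn 25 UMIs in Ccl2-high and 69 UMIs in Ccl2-zero cells (0.833-fold, 0.505 to 1.33) and Alcam 35 UMIs in Ccl2-high and 95 UMIs in Ccl2-zero cells (0.847-fold, 0.558 to 1.26). The 20 portal and 20 central genes were picked by their levels in Ccl2-zero cells. Narrowing to the portal range thus raises the Ccl2-zero level of the former and lowers that of the latter by selection. The higher NF-kB genes were picked by their fold over all cells, and 64.9% of the members enter both comparisons. How the sets differ therefore cannot show whether either depends on position. The difference between folds over all cells and folds within a range was not tested.

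**Figure D5:**
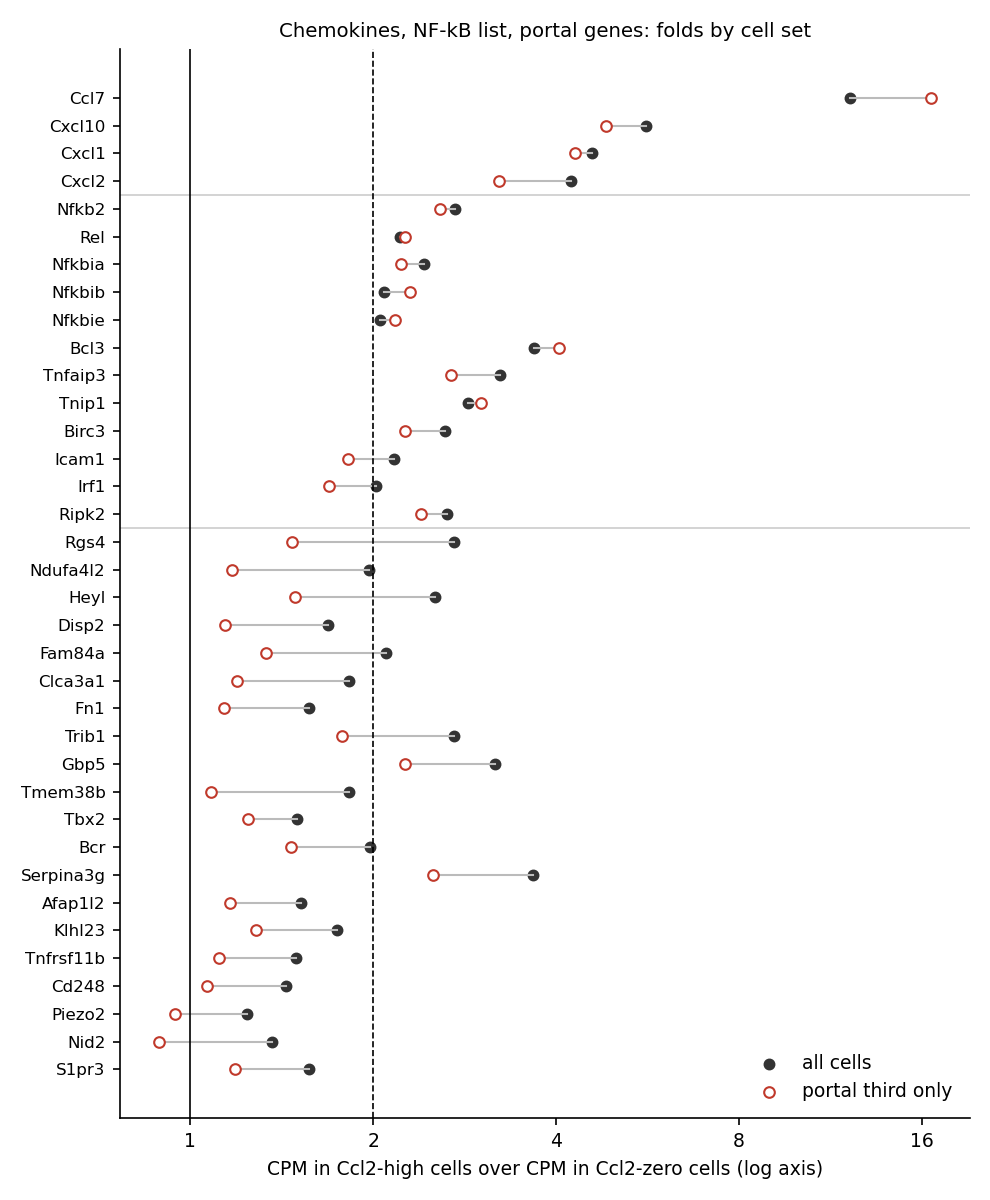
CPM in Ccl2-high over CPM in Ccl2-zero cells (log axis), over all cells (filled) and within the portal range of the landmark score (open), for 4 chemokine genes, the 12 higher NF-kB genes and the 20 genes with the largest portal over central fold among Ccl2-zero cells. Chemokine and NF-kB folds lie close together in both, apart from Ccl7 at 16.6 in the portal range. The portal genes lie nearer to 1 there, with a median of 1.19 beside 1.78. They were picked by a higher level in Ccl2-zero cells of that range, which lowers their fold there by selection.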

How the data were processed

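The deposited table holds raw UMI counts of 22508 genes in 9703 cells, whole numbers the authors left unscaled. Cell Ranger 2.1.1, Seurat 3.1 and GRCm38 are named in the submitters' processing notes, without their roles. Barcodes end in 1 or 2, taken here to mean WT replicate 1 or 2, which no header states. The library of WT replicate 2 had 11867207 UMIs in 2341 cells and that of replicate 1 had 40645060 UMIs in 7362 cells. No per-sample column was left unused.

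UMIs were summed over the cells of each side and scaled to CPM (Python 3.11.15, numpy 2.4.6, scipy 1.17.1, scanpy 1.11.5). Ratios have exact binomial intervals conditional on the sum, levels Poisson and shares Clopper-Pearson intervals. A side at 0 was set to 3 counts for a ratio. No doublets or free RNA were removed, except in an alternative with Scrublet. TMM factors came from edgeR 4.0.16 (R 4.3.3). The sums and folds were tested on simulated data. That was a check of the calculation only, and no error rate of 2-fold calls at low UMI counts was taken from it. Most lower calls lie at low counts: 243 genes were at least 2-fold lower at the main minimum, and 19 among genes with at least 200 UMIs. Coordinates are GENCODE vM21 and promoters RefSeq, GRCm38.p6.

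Named genes were the 15 largest folds on each side among genes with at least 50 UMIs in at least 10 cells and past 2-fold, without genes named mt-, Rpl, Rps, Gm or Rik, up to 6 such members per list (or the 3 with most UMIs where none passed), and markers. The cells, lists and landmarks were chosen with earlier results of these data known. Thinning and leaving out the highest cell were added after seeing the data.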

Additional observations from a re-analysis of the deposited data

Results flagged for a closer look

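Ccl2-rich cells also occurred in the library that the comparison did not use. In WT replicate 1, 93 cells had Ccl2 at 0.1% or more of their UMIs. The lowest, median and highest of them held 1, 8 and 55 Ccl2 UMIs, and the shallowest had 514 UMIs in all, so a single Ccl2 UMI sufficed for some. Of these 93, 84 (90.3%) had a UMI of Ptprc, Clec4f or Vsig4, beside 4282 of all 7362 cells of the library (58.2%). A UMI of Clec4g, Stab2 or Kdr was seen in 37 of the 93 (39.8%), beside 4834 of all 7362 (65.7%). Of the 93, 2 were among the 330 cells of that library with Dcn at 10 or more, with 24 and 41 Ccl2 UMIs. Over the whole libraries Ccl2 stood at 398 CPM in WT replicate 2 and 48.7 CPM in WT replicate 1.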

How the results depend on the processing

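The counts of 74 higher and 243 lower genes kept within 1.5 times under several settings, with 72 to 101 higher and 239 to 326 lower. These were all other Dcn-positive cells as comparison, cells of middle depth, a mean over cells and TMM scaling. Removal of 12 Scrublet doublets (0 Ccl2-high, 6 Ccl2-zero) and thinning to 3000 UMIs were the others. A Dcn minimum of 5 left 245 Ccl2-high and 1549 Ccl2-zero cells, and one of 20 left 244 and 1544. As these are nearly the same cells as before, the Dcn minimum could hardly move the counts. Removing cells with a marker of another type (193 Ccl2-high, 1167 Ccl2-zero) gave 61 higher and 235 lower of 5363 genes (1.14% and 4.38%), beside 10029 genes before (0.738% and 2.42%), so these counts are not over the same genes. A Ccl2 share of 0.05% gave 123 lower genes and one of 0.2% gave 119 higher and 497 lower. A minimum of 20 UMIs gave 174 higher and 542 lower, one of 200 gave 27 higher and 19 lower, and none gave 514 higher and 746 lower. The portal range gave 37 higher and 36 lower, the central range 132 higher and 535 lower, and the 2 Dcn-positive Ccl2-high cells of WT replicate 1 gave 1026 higher and 572 lower. Leaving out each gene's highest cell gave 397 lower. Fewer cells or UMIs enter several of these, and otherwise the cause was not tested.

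The sign turned for the log2 fold of Rsad2 (-0.79 at a share of 0.2%, -1.43 in the central range), the log2 fold of Thrb (0.20) and the log2 fold of Htra3 (0.15) in the portal range, and the log2 fold of Htra1 (-1.43) and the log2 fold of Heyl (-0.18) in the central range. With the 2 cells of WT replicate 1, which held 1 to 7 UMIs of each of these genes, it turned for the log2 fold of Trp53rkb (2.52), the log2 fold of Zeb2os (2.36), the log2 fold of Fbxo31 (0.60), the log2 fold of Wdr60 (2.01), the log2 fold of Csf1 (-0.59), the log2 fold of Tnip1 (-0.015), the log2 fold of Cish (-0.72), the log2 fold of Htra1 (-0.46), the log2 fold of Adamts5 (0.027) and the log2 fold of Spon2 (0.46); the cause was not tested. Of 42 named higher genes 36 stayed past 2-fold without cells holding a marker of another type, 28 in the portal range, 23 in the central range and 15 in WT replicate 1. Of 28 named lower genes it was 12, 18, 3 and 6 under the same 4 settings. At a Ccl2 share of 0.05% or more, 31 of the named higher and 19 of the named lower genes stayed past 2-fold. At middle depth it was 32 and 20, and against all other Dcn-positive cells 35 and 25. No paired analysis was possible because both sides lie in 1 library. Leaving out a replicate was not possible for the same reason.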
